A study of Drosophila melanogaster with 6 samples.

Results

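The transcripts described here encode the precursors of 37 neuropeptides and peptide hormones of the *Drosophila melanogaster* brain. The genes were chosen by name, and all 37 were found, with 63 transcripts, among the 13453 genes and 28071 transcripts of the table of counts. Poly-A RNA from whole dissected brains of adult males was sequenced from 3 genotypes, with 2 biological replicates of each and at least 450 pooled brains in a replicate. In males with a feminized blood–brain barrier (BBB), labelled SPG-GAL4/UAS-TraF, the driver SPG-GAL4 expressed the female form of Transformer (TraF) in the subperineurial glia, the glial layer that seals the brain from the hemolymph. One control genotype had SPG-GAL4 without the transgene (labelled +/SPG-GAL4) and the other had the transgene without SPG-GAL4 (labelled +/TraF), and all 3 genotypes shared a *w1118* background. The males were 4 to 5 days old and were dissected between ZT 5 and ZT 7 of a cycle with 12 h of light and 12 h of dark. The brains kept their BBB, so glial and neuronal RNA were measured together.

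Neuropeptides are made as larger precursor proteins that enter the secretory pathway, are cut by proprotein convertases, are often amidated at their end, and are stored in dense core vesicles. Most act through G protein-coupled receptors, while the insulin-like peptides act through a receptor tyrosine kinase. In the fly brain many are made by small sets of neurons or neurosecretory cells, and among their known roles are feeding, sleep, circadian timing, water balance, stress and courtship. In bulk RNA of a whole brain, a smaller number of peptidergic cells and less RNA per cell cannot be told apart.

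The libraries held between 32839081 and 37608924 estimated counts. Neuronal genes were high in all 6 (the 5 of 5 listed neuronal markers summed to between 185671 and 278818 normalized counts, which are counts scaled to a library of mean size). The 2 libraries of +/SPG-GAL4 stood apart from each other. Across 9777 genes, the difference between replicates 1 and 2 of that genotype followed gene length with a Spearman rho of 0.601, against 0.359 in +/TraF and 0.128 in SPG-GAL4/UAS-TraF, and genes shorter than 1000 nt were lower in replicate 1 by a median log2 difference of -0.31. RNA of other tissues differed as well. The 4 midgut genes found summed to 3376 normalized counts in +/TraF replicate 1 and to between 2.9 and 18.2 in the other libraries, and the 5 testis genes found summed to 141.9 in +/SPG-GAL4 replicate 2 and to between 9.6 and 29 elsewhere. The part of these differences in the results below was not tested beyond leaving out each library and removing the length trend.

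To rank the precursors in control males, counts were divided by annotated transcript length and scaled so that each library sums to 1000000, which gives the level of a gene. The 37 genes ranged over 1596-fold in this level. A level above 100 was found for 22 genes, a level from 10 to 100 for 7, and a level below 10 for 8. Of all 13421 genes with a count, 3 of the precursor genes lay within the highest 1%, 18 within the highest 5% and 22 within the highest 10%. The 5 highest precursors made up 47.7% of the summed level of the group in controls, and the 10 highest made up 67.2%. As a share of all transcripts by level, the group made up 1.15% and 1.20% in feminized males, 1.05% and 1.30% in +/SPG-GAL4 and 1.17% and 1.19% in +/TraF, so both feminized values lay inside the range of the controls.

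**Figure D1:**
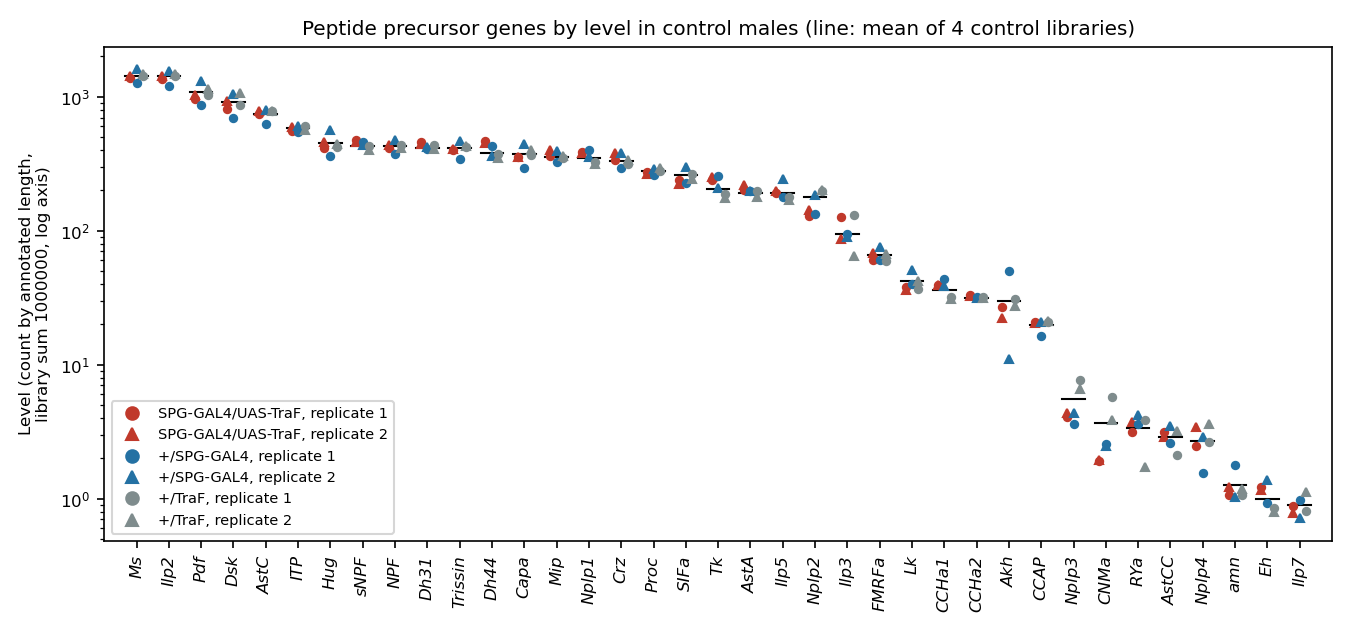
Level of each precursor gene in the 6 libraries (counts divided by annotated length, each library scaled to 1000000, log axis), ordered by the mean of the 4 control libraries (black line). Points are single libraries, with circles for replicate 1 and triangles for replicate 2; the order runs from *Ms* at 1440 to *Ilp7* at 0.90, and the widest gap between controls is that of *Akh*.

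*Ms* and *Ilp2* led the ranking. *Ms* encodes myosuppressin, which inhibits visceral muscle, and its level was 1381 and 1430 in feminized males, 1271 and 1600 in +/SPG-GAL4 and 1417 and 1472 in +/TraF. *Ilp2*, an insulin-like peptide of the median neurosecretory cells, was at 1349 and 1421 in feminized males, 1213 and 1556 in +/SPG-GAL4 and 1433 and 1486 in +/TraF. Their control ranges overlapped, so the first 2 places have no settled order. *Pdf*, the neuropeptide of the clock neurons, followed with 955 and 1040 in feminized males, 872 and 1303 in +/SPG-GAL4 and 1028 and 1137 in +/TraF. *Dsk*, the precursor of the cholecystokinin-like drosulfakinins, was at 817 and 925 in feminized males, 693 and 1054 in +/SPG-GAL4 and 871 and 1067 in +/TraF. For these 4 genes +/SPG-GAL4 replicate 1 was the lowest of the 6 libraries, and the feminized libraries lay inside the range of the controls.

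*AstC*, the precursor of the somatostatin-like allatostatin C, was at 739 and 782 in feminized males, 624 and 794 in +/SPG-GAL4 and 789 and 781 in +/TraF. *ITP*, ion transport peptide, an antidiuretic hormone, was at 551 and 590 in feminized males, 547 and 608 in +/SPG-GAL4 and 600 and 569 in +/TraF. The control range of *AstC* lay above that of *ITP*, 1 of only 5 breaks among the 36 neighbouring pairs of the ranking. *Hug*, whose peptide acts on feeding, was at 415 and 462 in feminized males, 361 and 568 in +/SPG-GAL4 and 424 and 447 in +/TraF. *sNPF*, short neuropeptide F, was at 475 and 459 in feminized males, 460 and 434 in +/SPG-GAL4 and 426 and 399 in +/TraF. *NPF*, the relative of vertebrate neuropeptide Y, was at 412 and 439 in feminized males, 374 and 474 in +/SPG-GAL4 and 437 and 418 in +/TraF. The control ranges of *Hug*, *sNPF* and *NPF* overlapped from one place to the next. *Dh31*, the calcitonin-like diuretic hormone, closed the first 10 places with 459 and 447 in feminized males, 408 and 418 in +/SPG-GAL4 and 437 and 405 in +/TraF.

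The next 12 genes, from *Trissin* at 415 through *Dh44*, *Capa*, *Mip*, *Nplp1*, *Crz*, *Proc*, *SIFa*, *Tk*, *AstA* and *Ilp5* to *Nplp2* at 180, made up the rest of the genes with a control mean above 100. *Capa* encodes the capability peptides, which act on the renal tubules, *Mip* the myoinhibitory peptides, *Crz* the stress-related corazonin and *Proc* the muscle-active pentapeptide proctolin. *SIFa* encodes SIFamide, made by a few neurons of the pars intercerebralis and known for its part in courtship. *Ilp3*, *FMRFa*, *Lk*, *CCHa1*, *CCHa2*, *Akh* and *CCAP* lay between 94.9 and 19.8. Below them came *Nplp3*, *CNMa*, *RYa*, *AstCC*, *Nplp4*, *amn*, *Eh* and *Ilp7*, from 5.56 to 0.90. Between *CCAP* and *Nplp3* the control ranges did not overlap, nor did they between *Crz* and *Proc*, *Nplp2* and *Ilp3*, or *FMRFa* and *Lk*, and the other 31 neighbouring pairs overlapped.

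There were 4 members that stayed under 50 counts in every library, where a difference was hardly detectable at this depth. *Ilp7*, an insulin-like peptide of the ventral nerve cord, had 16 and 14 counts in males with feminized BBB, 14 and 13 in +/SPG-GAL4 and 14 and 21 in +/TraF. *RYa*, the RYamide precursor, had 23 and 27, then 21 and 31, then 27 and 13 counts in the same order. *Eh*, eclosion hormone, which drives ecdysis, had 15 and 14, then 9 and 17, then 10 and 10, and *Nplp4* had 19 and 27, then 11 and 21, then 20 and 28. In these 4 genes the feminized counts lay inside the range of the controls.

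To ask whether feminization of the BBB changed the RNA of these precursors, gene sums of the 2 feminized libraries were compared with the 4 controls by edgeR's quasi-likelihood test. None of the 37 genes passed an adjusted p of 0.1, and neither did any of the 9777 genes tested (0%). At an unadjusted p below 0.05 there were 2 precursor genes, *Dh44* higher and *CNMa* lower, against 4.68% of all genes (458). The median log2 fold change was -0.01 for the 37 genes and -0.01 for all genes, with 18 precursors above 0 and 19 below. For 34 of the 37 the log2 fold change was smaller than 0.3 in size, and the standard errors ran from 0.07 to 0.46 with a median of 0.14. With DESeq2, no precursor gene passed the adjusted threshold, against 0.254% of the genes given an adjusted p (24), and 5 of the 37 had an unadjusted p below 0.05, against 3.18% of all genes (425), namely *Dh44*, *Tk* and *sNPF* higher and *Nplp2* and *CNMa* lower.

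**Figure D2:**
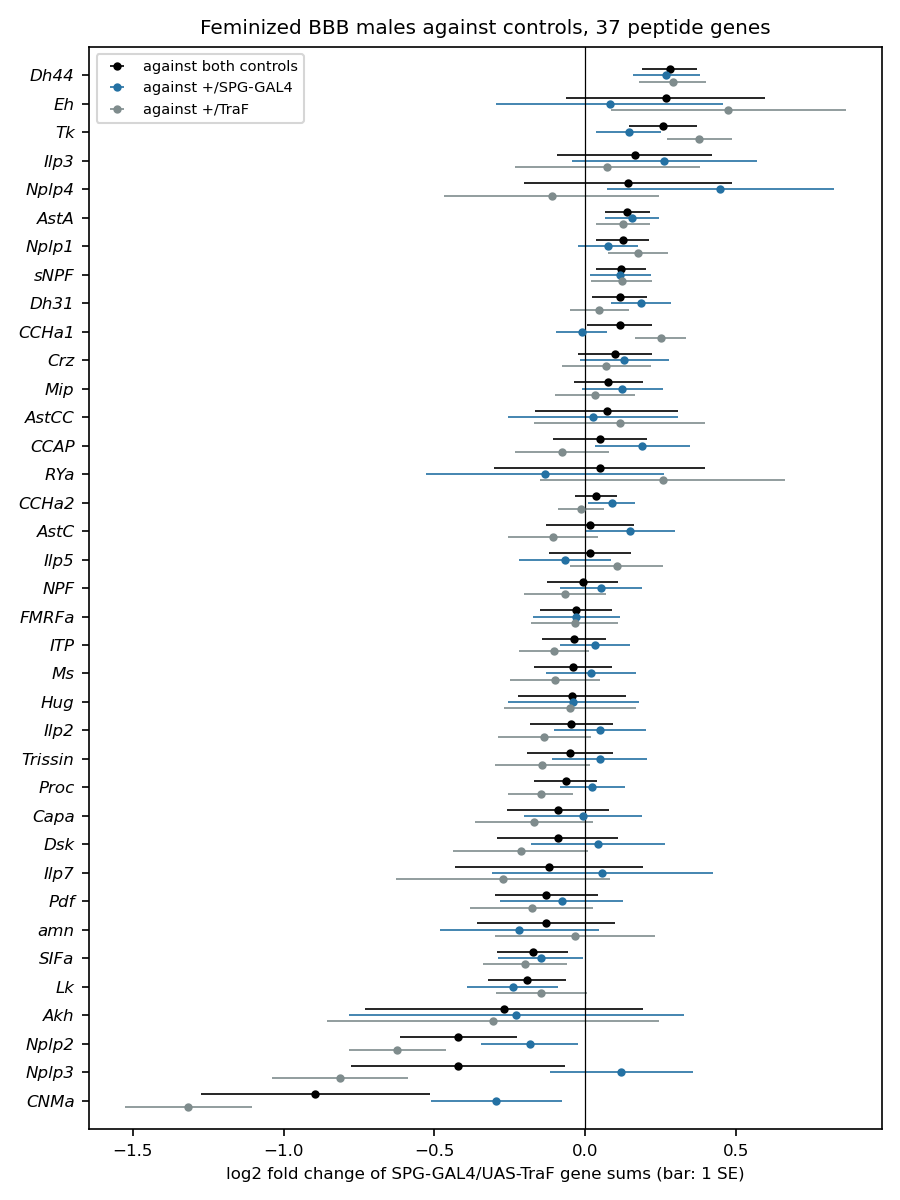
Log2 fold change of the gene sums in SPG-GAL4/UAS-TraF males for the 37 precursor genes, against both controls together (black), +/SPG-GAL4 (blue) and +/TraF (grey); bars are 1 SE. *Dh44* lies above 0 in all 3 comparisons, while *CNMa* and *Nplp2* lie further below 0 against +/TraF than against +/SPG-GAL4. *Nplp3* lies below 0 against +/TraF and above 0 against +/SPG-GAL4.

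*Dh44* encodes the corticotropin-releasing factor-like diuretic hormone, made in neurons of the pars intercerebralis and in the clock output pathway. It lies on chromosome 3R at 9638182 to 9650706 of BDGP6.54. Its normalized counts were 18253 and 17543 in feminized males, 15762 and 13919 in +/SPG-GAL4 and 15032 and 14223 in +/TraF. Both feminized libraries lay above all 4 controls. The fold was 1.21, with a log2 fold change of 0.28 (SE 0.09), an unadjusted p of 0.0162 and an edgeR adjusted p of 0.898. Against +/SPG-GAL4 alone the log2 fold change was 0.27 (SE 0.11), and against +/TraF alone it was 0.29 (SE 0.11), while the 2 controls differed by 0.02 (SE 0.11), a difference whose sign turned when +/SPG-GAL4 replicate 1 or +/TraF replicate 2 was left out.

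*Dh44* has 2 transcripts in the table, both with a coding length of 1068 nt. *Dh44-RC* (FBtr0344343, 2372 nt) carried between 97.7% and 98.2% of the gene's counts, and *Dh44-RA* (FBtr0082080, 1412 nt) the rest. *Dh44-RC* had 17890 and 17108 normalized counts in males with feminized BBB, 14847 and 13851 in +/SPG-GAL4 and 14828 and 14100 in +/TraF, and again both feminized libraries were the highest. Its log2 fold change was 0.28 (SE 0.07), with an unadjusted p of 0.00747 and an adjusted p of 0.709 in edgeR, and the adjusted p was 0.00201 in DESeq2. *Dh44-RA* had nearly the same log2 fold change, 0.28, and the usage of the 2 transcripts gave a p of 0.994. The study's own list of changed transcripts, chosen on these libraries, contains *Dh44-RC*, so its direction here is not independent evidence. The 3 of 3 listed glial markers summed to 152764 and 157145 normalized counts in the feminized libraries, against 118648 to 145837 in the controls. None of the 3 passed the adjusted threshold. For 2 of them both feminized libraries lay above all 4 controls. *Gs2*, a glutamine synthetase that made up most of that sum, had a log2 fold change of 0.28 (unadjusted p 0.0468), and *alrm*, an astrocyte marker, was at 29312 and 29061 in the feminized libraries and at 23004 to 29001 in control libraries (log2 fold change 0.22, unadjusted p 0.113). *repo*, the general glial transcription factor, was at 5091 and 5512 in feminized males and 5000 to 5711 in the controls. The 5 listed subperineurial genes summed to 17531 and 17229 in the feminized libraries, against 16625 to 17493 in the controls. Of these 5, 2 had a log2 fold change above 0 and 3 below. For *moody* both feminized libraries lay above all 4 controls, and for *sinu* both lay below. The part of glial RNA in the *Dh44* difference was not tested.

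Whether *Dh44* passed the threshold depended on 1 control library. Without +/SPG-GAL4 replicate 1, 3 precursor genes passed the threshold among 240 of 9763 genes. These were *Dh44* at a log2 fold change of 0.32 (adjusted p 0.0972), *Tk* at 0.35 (adjusted p 0.0901) and *Nplp2* at -0.55 (adjusted p 0.0856). With the length trend removed from every library and all libraries kept, *Dh44* had a log2 fold change of 0.27 and an adjusted p of 0.305, and no precursor gene passed.

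Besides *Dh44*, 3 precursors had both feminized libraries above all controls, which makes 4 of 37, against 5.58% of all genes, and *CNMa* was the 1 below, against 8.15%. *sNPF* was at 19312 and 18791 normalized counts in males with feminized BBB, 17675 and 17444 in +/SPG-GAL4 and 17963 and 17066 in +/TraF, a log2 fold change of 0.12 (SE 0.08, unadjusted p 0.193). *AstA*, the precursor of the allatostatin A peptides, which reduce feeding, was at 4562 and 4912, then 4200 and 4307, then 4533 and 4150, a log2 fold change of 0.14 (SE 0.07, unadjusted p 0.0948). *Nplp1* was at 14612 and 14530, then 14337 and 13311, then 13065 and 12737, a log2 fold change of 0.12 (SE 0.09, unadjusted p 0.196). The gap was narrow in *AstA*, where the lower feminized library was at 4562 and the highest control at 4533. The edgeR adjusted p was 0.999 for each of the 3. With the length trend removed, 7 precursors lay above all controls, against 8.13% of all genes (*AstA*, *CCAP*, *Crz*, *Dh31*, *Dh44*, *Nplp1* and *sNPF*), and 2 lay below, against 9.86% (*CNMa* and *Nplp2*).

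**Figure D3:**
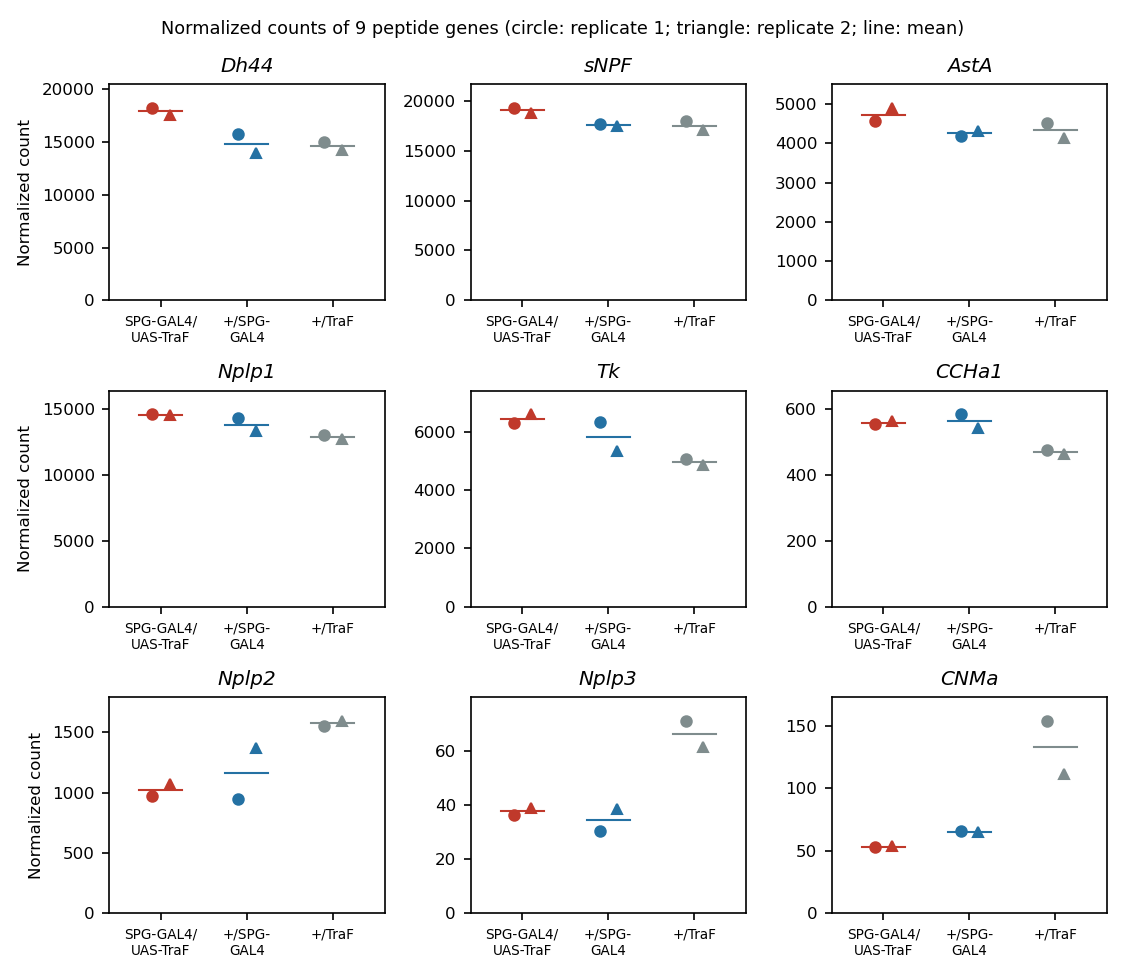
Normalized counts of the gene sums of 9 precursor genes in each library (circle for replicate 1, triangle for replicate 2, line for the mean of a genotype); every axis starts at 0. The feminized libraries are highest for *Dh44*, *sNPF*, *AstA* and *Nplp1*, and +/TraF stands above the other genotypes for *Nplp2*, *Nplp3* and *CNMa*.

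*CNMa*, the precursor of CNMamide, had the largest log2 fold change of the 37 genes. Its normalized counts were 52.8 and 53.8 in feminized males, 65.8 and 64.9 in +/SPG-GAL4 and 154 and 111 in +/TraF. The feminized libraries were the lowest, but most of the distance was between the 2 controls. Against both controls the log2 fold change was -0.89 (SE 0.38, unadjusted p 0.0474, adjusted p 0.999 in edgeR). Against +/TraF it was -1.32 (SE 0.21, adjusted p 0.191), against +/SPG-GAL4 it was -0.29 (SE 0.22, adjusted p 1.00), and +/SPG-GAL4 was itself below +/TraF by a log2 difference of -1.02 (SE 0.21, adjusted p 0.260). These comparisons share libraries and came from 1 fit with 3 genotypes. Against +/TraF, the alternatives in which *CNMa* passed the threshold included DESeq2 (adjusted p 0.0304) and removal of the length trend (adjusted p 0.0812). It did not pass without a filter or in limma-voom.

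In the separate comparisons with each control, no precursor gene passed the adjusted threshold. Against +/SPG-GAL4, where 0.0102% of genes passed (1), *Dh44* was the 1 precursor with an unadjusted p below 0.05, against 5.84% of all genes. Against +/TraF, where 0.102% passed (10), 6 precursors had an unadjusted p below 0.05, against 7.14% of all genes, 3 of them higher (*Tk*, *Dh44* and *CCHa1*) and 3 lower (*CNMa*, *Nplp2* and *Nplp3*). Between the controls, where 0.215% passed (21), 4 precursors had an unadjusted p below 0.05, against 7.71% of all genes, with *CCHa1* higher in +/SPG-GAL4 and *CNMa*, *Nplp2* and *Nplp3* lower. Both +/SPG-GAL4 libraries lay above both +/TraF libraries for 3 precursors, against 15.9% of all genes, and below them for 10, against 19.2%. The median log2 difference of the 37 genes was 0.05 against +/SPG-GAL4 and -0.07 against +/TraF, and it was -0.10 between the controls, where that of all genes was 0.00.

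*Tk*, the precursor of the tachykinins, which act in aggression and metabolism, was at 6295 and 6607 normalized counts in males with feminized BBB, 6326 and 5337 in +/SPG-GAL4 and 5055 and 4864 in +/TraF. Both +/TraF libraries were the lowest, and +/SPG-GAL4 replicate 1 lay between the feminized libraries. Against +/TraF the log2 fold change was 0.38 (SE 0.11, unadjusted p 0.0100, adjusted p 0.565), and against +/SPG-GAL4 it was 0.15 (SE 0.11). *CCHa1*, the CCHamide-1 precursor, was at 555 and 564 in feminized males, 585 and 542 in +/SPG-GAL4 and 475 and 465 in +/TraF. Here +/SPG-GAL4 and the feminized males overlapped, and the log2 fold change against +/TraF was 0.25 (SE 0.08, adjusted p 0.655).

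*Nplp2* and *Nplp3* belong to the neuropeptide-like precursors, which were named from peptides found in the fly by mass spectrometry. *Nplp2* was at 971 and 1075 normalized counts in males with feminized BBB, 951 and 1369 in +/SPG-GAL4 and 1555 and 1596 in +/TraF. Against +/TraF the log2 fold change was -0.62 (SE 0.16, adjusted p 0.523). *Nplp3* was at 36.5 and 39.1 in feminized males, 30.6 and 38.5 in +/SPG-GAL4 and 71.4 and 61.6 in +/TraF, with a log2 fold change against +/TraF of -0.81 (SE 0.23, adjusted p 0.564). For *Nplp3*, as for *CNMa*, the feminized values lay near those of +/SPG-GAL4. For *Nplp2* they lay between the 2 libraries of +/SPG-GAL4, closer to replicate 1. In each of these genes +/TraF was the highest genotype. Some retinal genes had their highest values in +/TraF too, with *ninaE*, the main rhodopsin, at 2916 and 1930 normalized counts there, 1406 and 1852 in +/SPG-GAL4 and 1179 and 1625 in feminized males. The 13 of 13 retinal genes found summed to between 31817 and 36337 over the 6 libraries, but *norpA*, at 19097 to 27196, made up most of that sum. The other 12 summed to 8349 and 12334 in feminized males, 8392 and 12841 in +/SPG-GAL4 and 14342 and 12704 in +/TraF. All 12 had a log2 fold change below 0 against both controls together, with a median of -0.26 over the 13 genes, and none passed the adjusted threshold. Against +/SPG-GAL4 alone none of the 13 had an unadjusted p below 0.05, against 5.84% of all genes. Against +/TraF alone *ninaE*, *trp*, *trpl*, *Rh4* and *Rh6* did, against 7.14% of all genes. *Rh4*, a rhodopsin, had both feminized libraries below all controls (log2 fold change -0.82, unadjusted p 0.0387). The part of retinal RNA in these differences was not tested.

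Leaving out single libraries changed which precursors passed in these separate comparisons, where a genotype left with 1 library is assumed to vary like the others. Numbers passing are therefore not given for these fits. Against +/TraF, the median log2 difference of the precursors was -0.05 without +/SPG-GAL4 replicate 1 and -0.07 without its replicate 2. For all genes it was -0.003 and -0.01. Against +/SPG-GAL4, the same 2 fits gave the precursors -0.06 and 0.22, and all genes -0.02 and 0.01. Between the controls they gave the precursors 0.05 and -0.24, and all genes 0.004 and -0.03.

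The spread between the control libraries was itself large for the precursors. Their log2 counts had a median SD of 0.23 over the 4 controls, against 0.15 for all genes tested, and of 0.14 and 0.10 once the length trend was removed. Of the 37 genes, 20 were shorter than 1000 nt. In +/SPG-GAL4, 27 of the 37 were lower in replicate 1 than in replicate 2, against 53% of all genes, and the median log2 difference was -0.39, against -0.03 for all genes. That library was the lowest of all 6 for 22 precursors, against 32.7% of all genes, and +/SPG-GAL4 replicate 2 was the highest for 13, against 18.5%. With the length trend removed, 12 precursors were lowest in replicate 1, against 24.5% of all genes, and the median difference between the replicates was -0.04.

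**Figure D4:**
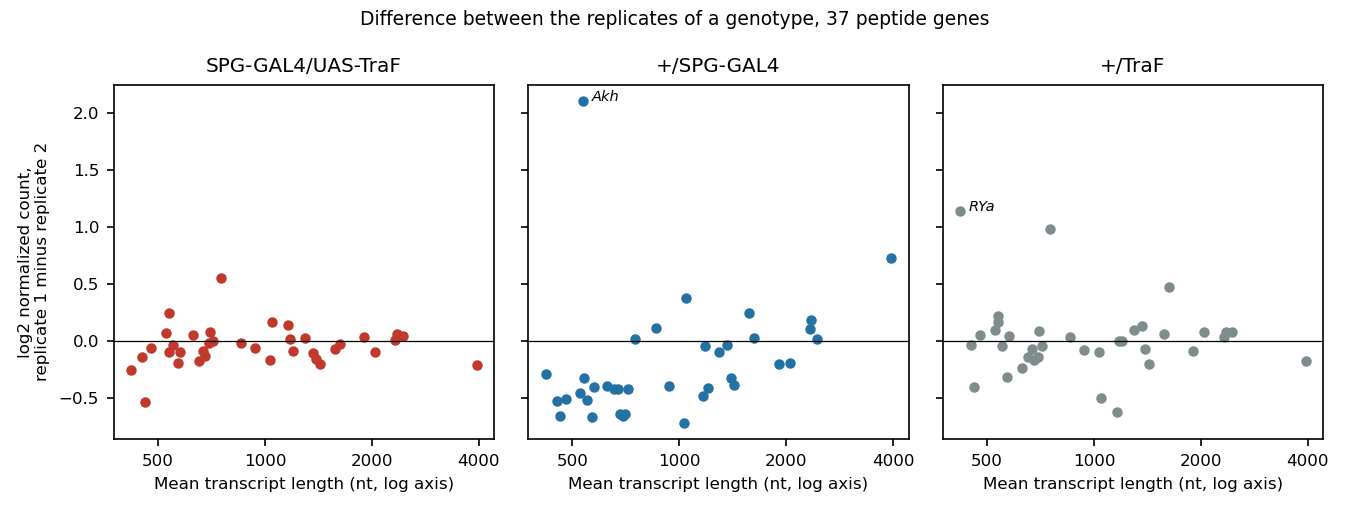
Difference in log2 normalized count between replicates 1 and 2 of each genotype for the 37 precursor genes, against mean transcript length (nt, log axis). In +/SPG-GAL4 most short genes lie below 0 and *Akh* stands apart above 2, while in SPG-GAL4/UAS-TraF most lie near 0.

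*Pdf* and *Hug* showed this spread among the abundant precursors. *Pdf* was at 10786 and 11839 normalized counts in males with feminized BBB, 9317 and 14560 in +/SPG-GAL4 and 12057 and 13525 in +/TraF. *Hug* was at 7113 and 7985, then 5853 and 9652, then 7555 and 8075. In both genes the 2 libraries of +/SPG-GAL4 enclosed all the others. *CCHa2*, which encodes a fat body and gut hormone that acts on insulin-producing cells, had levels from 31.3 to 32.0 over the controls, the smallest SD relative to the mean of any member on that scale, whereas in normalized counts it was *sNPF* that varied least by the same measure. Levels of 23 members differed by less than 1.5-fold between the lowest and the highest control, and those of 6 by 2-fold or more.

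The widest spread was that of *Akh*, adipokinetic hormone, the glucagon-like peptide of the corpora cardiaca, which are glands beside the brain. It was at 238 and 201 normalized counts in males with feminized BBB, 421 and 97.8 in +/SPG-GAL4 and 287 and 256 in +/TraF, and its level differed 4.51-fold between controls. *jhamt*, a juvenile hormone enzyme of the neighbouring corpora allata, had 213 and 48.9 normalized counts in the same 2 libraries of +/SPG-GAL4 and 74.8 to 93.8 in the other 4. Both genes were thus highest in +/SPG-GAL4 replicate 1 and lowest in replicate 2, against the direction of most short genes. Of the other gland genes found, *Fpps* went the other way in these libraries, at 647 in replicate 1 and 707 in replicate 2. *dib* and *nvd* were near the floor, with at most 2.27 and 9.78 normalized counts in any library. How much gland tissue stayed on the brains was not tested. *Ilp3*, an insulin-like peptide made with *Ilp2*, also varied within genotypes, with 1586 and 1083 in feminized males, 1118 and 1106 in +/SPG-GAL4 and 1685 and 854 in +/TraF.

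By role, no family had more than 1 member with an unadjusted p below 0.05 against both controls. Of the 5 diuretic and water balance genes (*Dh44*, *Dh31*, *Lk*, *Capa* and *ITP*), *Dh44* was that member, and log2 fold changes ran from -0.19 to 0.28 around a median of -0.04. Of the 6 genes *Tk*, *CCHa1*, *CCHa2*, *Trissin*, *CNMa* and *Proc*, *CNMa* was that member. The other families had none. The 4 insulin-like genes had log2 fold changes from -0.12 to 0.17, the 4 allatostatin and myoinhibitory genes from 0.02 to 0.14, the 7 NPF and RFamide genes (*NPF*, *sNPF*, *RYa*, *Dsk*, *Ms*, *FMRFa* and *SIFa*) from -0.17 to 0.12, the 4 neuropeptide-like precursors from -0.42 to 0.14 and the 7 clock, ecdysis and metabolic genes (*Pdf*, *Eh*, *CCAP*, *Crz*, *Akh*, *Hug* and *amn*) from -0.27 to 0.27. The summed level of a family in feminized males lay inside the range of the controls in most families, as for the NPF and RFamide genes, with 3385 and 3550 against 3091 to 3941. The exceptions were 1 library of the allatostatin and myoinhibitory genes, at 1400 against at most 1387, and 1 of the neuropeptide-like precursors, at 521 against at least 526.

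The kit does not mark strand, so counts of a gene and of an overlapping gene on the other strand may be mixed. This concerns *Lk*, the precursor of leucokinin, a diuretic peptide, of whose exonic bases 93.0% overlap the antisense RNA *CR44843*, and *SIFa*, of whose bases 21.1% overlap *Start1*. For *CCAP*, *ITP*, *amn* and *Ilp7* the overlap was 6.32% or less. *Lk* had 394 and 381 normalized counts in males with feminized BBB, 395 and 520 in +/SPG-GAL4 and 393 and 464 in +/TraF, and *SIFa* had 2073 and 1980, then 1890 and 2595, then 2402 and 2250. The feminized libraries overlapped with the controls in both genes.

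At the level of transcripts, 58 of the 63 were tested and none passed the adjusted threshold in edgeR, against 0.0142% of 21198 transcripts (3). *Dh44-RC*, *AstA-RA*, *Nplp1-RA* and *Tk-RA* had an unadjusted p below 0.05, all higher in feminized males, against 5.33% of all transcripts. Over all transcripts, 364 with such a p were higher and 765 lower. The log2 fold change was 0.19 (SE 0.07) for *AstA-RA*, 0.26 for *Nplp1-RA* and 0.27 for *Tk-RA*. In DESeq2, 1.25% of transcripts given an adjusted p passed (281), and *Dh44-RC* was the 1 of these genes' transcripts among them.

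Because TraF is a splicing regulator, the use of transcripts within genes was tested for the 16 precursor genes that allowed it. None passed the adjusted threshold, against 1.31% of genes tested (67), and none had an unadjusted p below 0.05, against 9.24%, the smallest being 0.145 for *AstA*. In *ITP*, 5 transcripts were listed, and *ITP-RE* carried between 73.6% and 75.8% of the counts in every library. *Ms-RA* carried 91.7% to 93.3%, *Tk-RA* 72.4% to 76.1% and *AstC-RA* 59.6% to 63.8%. These shares differed by a few percentage points between libraries, while *Nplp1-RA* ranged from 45.9% to 53.8%. Genes with few counts varied more, with *AstCC-RB* at 28.1% to 71.4% and *Nplp4-RA* at 9.1% to 66.7%. Some splits reflect how reads were shared out: *Nplp2-RA* and *Nplp2-RC*, both 452 nt long, had equal counts in all 6 libraries, and in *Eh* all counts went to *Eh-RA* (704 nt) or to *Eh-RB* (700 nt), depending on the library. Both genes were among the 16 tested, and the equal counts of *Nplp2* left no change of usage to find.

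**Figure D5:**
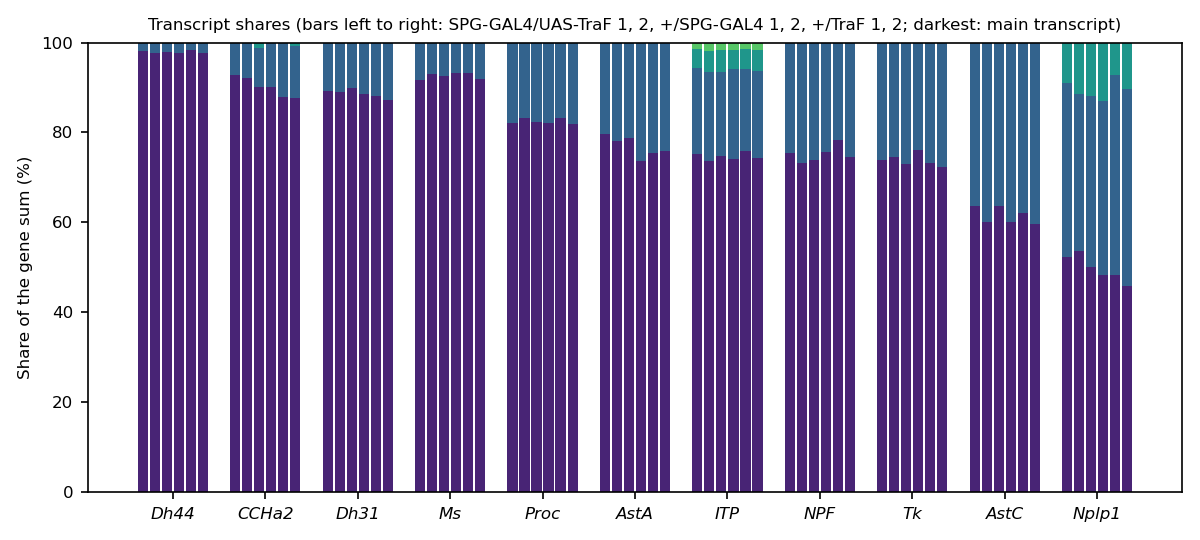
Share of the gene sum (percent) carried by each transcript of 11 precursor genes, with bars from left to right for SPG-GAL4/UAS-TraF 1 and 2, +/SPG-GAL4 1 and 2, and +/TraF 1 and 2; the darkest part is the main transcript. The main transcript is the same in all 6 libraries for each gene shown, and the smallest share of a main transcript is that of *Nplp1*. *AstCC*, *Nplp4* and *Eh*, whose main transcript changes between libraries, are not shown.

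The enzymes and vesicle proteins that process and release these peptides were listed apart. Of 19 listed genes 17 were found, and none of them passed the adjusted threshold or had an unadjusted p below 0.05 against both controls, with a median log2 fold change of 0.03. Both feminized libraries lay above all 4 controls for 2 of the 17, *Pal2* and *svr*, against 5.58% of all genes. *Pal2*, a lyase that completes amidation, was at 29401 and 30360 normalized counts in males with feminized BBB, 27821 and 27337 in +/SPG-GAL4 and 25811 and 25585 in +/TraF (log2 fold change 0.17, unadjusted p 0.112). *svr* was at 32282 and 31768, then 31098 and 30697, then 29106 and 29074 (log2 fold change 0.09, unadjusted p 0.333). *amon*, the proprotein convertase of these cells, was at 28396 and 28060, then 30323 and 27715, then 27431 and 25980, within the range of the controls. Of 14 other peptide hormone genes found, 9 could be tested and none passed. *Lst*, limostatin, was at 25.9 and 20.5 in feminized males, 13.6 and 16.9 in +/SPG-GAL4 and 65.2 and 44.0 in +/TraF, and the controls differed by a log2 value of -1.82 (adjusted p 0.185 in edgeR). That difference passed in DESeq2 (adjusted p 0.0876).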

How the data were processed

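Per the labels, poly-A RNA of brains from males of 3 genotypes was sequenced in 6 libraries, 2 per genotype. The authors quantified TruSeq v1 libraries with Kallisto. The deposited values are its estimated counts for each transcript, rounded and not normalized. The Kallisto version and transcriptome release are not given in the sources used here. All 6 columns of values were used. Kallisto shares out reads that match several transcripts, and that error was not used here.

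Transcripts were placed in genes with Ensembl release 115 of BDGP6.54 (10 transcripts, with 0.00609% of the counts, had no entry) and summed. Gene sums, transcripts and transcript usage (diffSpliceDGE) were tested in edgeR 4.0.16 (R 4.3.3) by quasi-likelihood, with TMM normalization, its default filter, a prior count of 0.125 and a Benjamini-Hochberg adjusted p below 0.1, over all features. Comparisons with each control came from a fit of 3 genotypes. Levels are counts divided by annotated length, scaled to a sum of 1000000 per library. The test was checked on simulated data.

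Members and lists were chosen with earlier results of these data known. Values are given per library for the 10 highest members, members with an unadjusted p below 0.05 or feminized libraries outside the controls, *Dh44* and members under 50 counts. Alternatives were DESeq2 1.42.0, limma-voom (limma 3.58.1), other size factors, filters and thresholds, removal of the length trend, the replicate number as a block and leaving out each library. Since none of the 9777 genes tested passed the adjusted threshold against both controls, no gene of the marker lists could. This covers the subperineurial glia, fat body, muscle, gland and hemocyte lists. No gene of the salivary gland list was tested.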

Additional observations from a re-analysis of the deposited data

Results flagged for a closer look

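In 3 members, 1 of the 4 control libraries lay far from the others by Dixon's 95% criterion, which flags about 1 in 20 groups by chance. *AstC* had 11770 normalized counts in +/SPG-GAL4 replicate 1, against 15675 to 16411 in the other controls. *Trissin* had 2946 normalized counts in the same library, against 4022 to 4217 in the others. *Eh* had 16.0 normalized counts in +/SPG-GAL4 replicate 2, against 9.78 to 10.4 in the others.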

How the results depend on the processing

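For 30 log2 fold changes of single genes and transcripts given above, the alternatives gave 410 values, of which 376 kept their direction and their side of the threshold. The 2 that reversed were both of *Dh44* between the controls, which was -0.062 without +/SPG-GAL4 replicate 1 and -0.022 without +/TraF replicate 2 (range -0.062 to 0.11 when leaving out 1 library). The 32 that newly passed concern *Dh44*, *Tk*, *Nplp2*, *Nplp3*, *CNMa*, *CCHa1*, *Lst* and *Dh44-RC*. Some of these came from fits that leave a genotype with 1 library. In the comparison with both controls, 0 genes passed in edgeR, against 24 in DESeq2, 1 with the length trend removed, 2 with that and a replicate block, and 2 in the fit of 3 genotypes, and no precursor was among them. Against +/SPG-GAL4, 1 gene passed, against 40 in DESeq2, 5 without a filter, 2 with at least 10 counts in every library, 28 with a replicate block, 2 in limma-voom, 17 with the length trend removed and 155 with that and a replicate block, which included 1 precursor, *Dh44*. Against +/TraF, 10 genes passed, against 3 at an adjusted p below 0.05, 57 in DESeq2, 19 without a filter, 55 with a replicate block, 58 with the length trend removed and 193 with that and a replicate block. The precursors among them were 1 (*CNMa*) in DESeq2, with a replicate block and with the length trend removed, and 4 (*CNMa*, *Dh44*, *Nplp2* and *Tk*) with both. Between the controls, 21 genes passed, against 95 in DESeq2, 34 without a filter, 87 with a replicate block, 71 with the length trend removed and 250 with both, which included 2 precursors (*CNMa* and *Ilp5*). Over all genes, deviations from the genotype means correlated at -0.0036, -0.18 and 0.24 between same-numbered libraries of the 3 pairs of genotypes, and over the precursors alone at 0.39, 0.29 and 0.18. The genotypes were dissected side by side, but no source ties a replicate number to a sitting, so the libraries were not treated as paired. With the replicate block, *CNMa* against +/TraF had an adjusted p of 0.0592 in edgeR.

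Leaving out 1 library gave 0 to 240 genes and 0 to 3 precursors against both controls. It gave 0 to 2010 genes and 0 to 13 precursors against +/SPG-GAL4, 3 to 413 genes and 0 to 4 precursors against +/TraF, and 6 to 3856 genes and 0 to 22 precursors between the controls. The cause was not tested. Among transcripts, DESeq2 called 1 transcript of these genes (*Dh44-RC*), and transcript usage called 0 in each alternative. Of the 10 highest members, 8 stayed among the first 10 with effective lengths, 7 without division by length and 9 in +/TraF alone. Chosen after the data were seen, removal of the length trend left 12 instead of 22 members lowest in +/SPG-GAL4 replicate 1 and put 7 instead of 4 above and 2 instead of 1 below all controls. With 2 libraries per genotype, members with few counts, such as *Eh* and *Ilp7*, had standard errors above 0.3.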
